A study of Mus musculus with 20 samples.

Results

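The genes described are 10 members of the NF-κB pathway: the subunit genes Rela, Rel, Relb and Nfkb2, the inhibitor genes Nfkbia and Nfkbie, the regulators Tnfaip3 and Tnip1, and the target genes Birc3 and Icam1. They were found by symbol in the platform annotation, where each of the 10 had a single probe set, and they stand among 19505 genes measured. Whole epididymal fat pads of 20 male C57BL/6 mice were measured, 1 array per mouse, at 28 weeks of age after 18 weeks on a high-fat diet with 40% of calories from fat, which followed chow until 10 weeks. Both Tnf alleles were floxed in every mouse (TNF-αFlox/FLox). The 10 cre mice also carried 1 copy of the Cre transgene (LyzMcre+/-), which is driven from the lysozyme M locus and so acts in macrophages and other myeloid cells, while Tnf stays intact in the remaining cells of the pad. The 10 wt littermates had no Cre (LyzMcre-/-). Each of 2 batches, which the sample titles do not describe further, held 5 wt and 5 cre mice.

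NF-κB is a family of dimeric transcription factors that inhibitor proteins of the IκB group hold in the cytoplasm. Binding of TNF-α to its receptor activates a kinase complex that marks IκB for degradation, after which the dimers enter the nucleus and switch on inflammatory genes, among them the genes of their own inhibitors. These feedback inhibitors end the response, and adhesion molecules such as ICAM-1 and survival proteins such as cIAP2, the product of Birc3, are well known targets. Arrays measure the RNA of these genes and not the location or activity of the proteins.

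All values are log2 signals, on which 1 unit is a 2-fold step, and signals of different genes are not compared with each other. The arrays had medians from 6.49 to 6.58. The list mean of adipocyte markers lay between 14.66 and 17.17 in the 20 pads. Genes of other tissues were highest in a pair of wt pads. The mean of 13 epididymis, seminal vesicle and testis genes was 10.32 in wt replicate 6, against at most 5.94 in every other mouse. The mean of 10 liver genes was 14.61 in wt replicate 4, against at most 12.68 in the others. Liver genes varied widely among those others too, from 6.38 to 11.48 in wt pads and from 7.54 to 12.68 in cre pads. With all pads kept, the liver list lay 1.4 higher in cre, a difference that was not tested. Cre replicates 7 and 9 had the lowest means of 19 macrophage markers, 11.22 and 10.79, against 12.07 to 14.05 in the other 18 mice. The share of probe sets with an unadjusted p under 0.05 between batches was 0.572% by limma.

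The promoter windows of the members are shown because NF-κB acts on genes through short κB sites in their DNA. RefSeq windows of 300 bases, from 250 before to 50 after the start of transcription (GRCm38.p6), were found for 9 of the 10 members. The κB consensus motif, searched on both strands, was present in 6 of these 9 members, Nfkb2, Rel, Nfkbia, Nfkbie, Tnfaip3 and Tnip1, in 8 of their 12 windows, while 4.51% of 32851 windows of all genes held it. The shorter motif GGAANTTCC, which can overlap the consensus and does so in Nfkbia, was present in Nfkbia, Tnfaip3 and Icam1, in 1 window each, against 0.928% of all windows. The windows below are those of the pair of inhibitors that varied together across mice and of the pair of targets that followed Tnf, with matches to either motif in capitals; they are the minus strand at chr12:55492598-55492897 for Nfkbia, the minus strand at chr10:19015361-19015660 for Tnfaip3, the plus strand at chr9:21015690-21015989 for Icam1 and the minus strand at chr9:7873121-7873420 for Birc3, whose window held no match. The window shown for Tnfaip3 is the first of 2, and the second held no match.
Nfkbia: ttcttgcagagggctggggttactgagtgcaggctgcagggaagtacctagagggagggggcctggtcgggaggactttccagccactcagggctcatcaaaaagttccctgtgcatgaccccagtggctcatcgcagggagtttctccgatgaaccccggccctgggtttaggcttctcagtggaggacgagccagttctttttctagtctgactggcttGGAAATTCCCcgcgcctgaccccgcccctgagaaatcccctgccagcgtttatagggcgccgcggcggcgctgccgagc
Tnfaip3: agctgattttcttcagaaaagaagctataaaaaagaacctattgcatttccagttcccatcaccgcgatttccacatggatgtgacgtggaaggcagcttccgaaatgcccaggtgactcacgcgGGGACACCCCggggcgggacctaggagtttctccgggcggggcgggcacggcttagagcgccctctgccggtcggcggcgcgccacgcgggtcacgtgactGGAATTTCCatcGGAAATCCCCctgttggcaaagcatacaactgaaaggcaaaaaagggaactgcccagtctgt
Icam1: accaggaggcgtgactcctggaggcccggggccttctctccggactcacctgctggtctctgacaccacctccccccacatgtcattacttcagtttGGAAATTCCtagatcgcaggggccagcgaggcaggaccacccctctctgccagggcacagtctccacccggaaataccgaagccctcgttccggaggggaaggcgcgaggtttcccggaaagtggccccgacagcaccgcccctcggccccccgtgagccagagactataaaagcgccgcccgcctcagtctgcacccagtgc
Birc3: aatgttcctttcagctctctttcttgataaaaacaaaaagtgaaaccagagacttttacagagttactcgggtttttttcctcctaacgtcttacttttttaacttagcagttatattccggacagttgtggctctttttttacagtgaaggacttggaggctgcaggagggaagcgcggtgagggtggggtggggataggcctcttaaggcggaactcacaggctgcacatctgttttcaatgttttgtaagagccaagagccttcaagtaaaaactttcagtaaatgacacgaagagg
Matches in Nfkb2, Rel, Nfkbie and Tnip1 are given as the matched letters alone, with positions counted from the start. In Nfkb2 the consensus read GGGAATTCCC at −39 to −30 and GGGGCTTTCC at −11 to −2 of the first annotated start. In Rel it read GGGAAATCCC, from −92 to −83, in Nfkbie GGGGGATTCC, from −106 to −97, and in Tnip1 GGGAATTCCC, from −57 to −48. A match is a description of letters and not of binding.

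Tnf, the gene targeted for deletion, sets the scale for what follows. Its log2 signal ranged from 5.78 through a median of 6.48 to 7.80 in wt and from 3.91 through 4.58 to 5.34 in cre mice. The groups did not overlap, and the difference was −1.99 (SE 0.24, limma adjusted p = 0.000822). Among all 22206 probe sets, 0.0045% passed adjustment in this comparison and 0.00901% had groups that did not overlap. The part of Tnf that the probes read relative to the floxed part is not given in the sources used here.

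Beside this difference in Tnf, 0 of the 10 members passed adjustment (limma adjusted p from 0.818 to 0.996), 0 had an unadjusted p under 0.05, which 6.29% of all probe sets had, and 0 had groups that did not overlap. The study's own selection asked for a 1.5-fold change together with an unadjusted p under 0.05. Applied to the limma fit used here, these limits took 1.04% of all probe sets and 0 of the 10 members. All 10 had a lower mean in cre, by −0.39 to −0.01 with a median of −0.16, while 49.3% of all probe sets were lower and their median was 0.00. Markers of macrophages lay further in the same direction, with 19 of 20 lower in cre and a median of −0.36. Lyz2, whose locus carries Cre, is included. Markers of adipocytes lay in the other, with 11 of 11 higher and a median of 0.35. In either list 0 markers passed adjustment, and a few pads stood apart. Cre replicates 7 and 9 had the lowest macrophage means, 11.22 and 10.79, against 12.07 to 14.05 in the other mice. Wt replicates 5 and 6 had the lowest adipocyte means, 15.36 and 14.66, against 16.17 to 17.17 in the other mice. The part of these marker differences in those of the members was not tested beyond the fit with the macrophage mean. The 95% intervals of the fit over both batches lay within −0.86 and 0.40 for all 10, so that a 2-fold difference in either direction was outside each of them. Within batch 1 alone the intervals were wider and reached −1.25 for Rel, −1.22 for Icam1 and −1.14 for Tnip1, past a 2-fold decrease. In whole tissue, fewer cells of a type and less RNA per cell cannot be told apart.

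The pads that stood apart moved these differences. Without wt replicates 4 and 6, a choice made after the values were seen, Icam1 differed by −0.55, Tnip1 by −0.45 and Rela by −0.35, and these 3 members had an unadjusted p under 0.05 (limma adjusted p = 0.715 for each), against 6.89% of all probe sets in that fit. Without cre replicates 7 and 9, Icam1 differed by −0.24, Tnip1 by −0.11 and Rela by −0.11, and 0 members had an unadjusted p under 0.05, against 5.03% of all probe sets.

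Among the subunits, Rela encodes p65, the main activating subunit of the classical pathway (chromosome 19, 5637442 to 5648134, mm10). Its signal ranged from 13.89 through a median of 14.68 to 15.14 in wt and from 13.73 through 14.46 to 14.83 in cre mice. The ranges overlapped almost wholly, but 9 of 10 cre values lay under the mean of wt, and the lowest values were those of wt replicate 6 and cre replicates 7 and 9. Rela differed by −0.26 (95% interval −0.58 to 0.07, limma adjusted p = 0.821).

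Rel encodes c-Rel, a subunit found mainly in cells of the immune system (chromosome 11, 23736847 to 23770969). Its signal ranged from 8.94 through 9.29 to 10.33 in wt and from 7.96 through 9.41 to 10.19 in cre. Only cre replicates 9 and 7, at 7.96 and 8.64, lay below the lowest wt mouse, and these are the pads with the least macrophage RNA. Rel differed by −0.15 (95% interval −0.67 to 0.36, limma adjusted p = 0.925), and without these 2 mice by 0.11.

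Relb and Nfkb2 encode the subunits of the alternative pathway, RelB and p100, the latter being processed to p52. Relb (chromosome 7, 19606217 to 19629438) ranged from 5.60 through 5.92 to 6.50 in wt and from 5.54 through 5.81 to 6.28 in cre, a difference of −0.12 (95% interval −0.38 to 0.14). Its signal stood at a median percentile of 42.5 on the arrays, close to the middle of all probe sets. Nfkb2 (chromosome 19, 46300994 to 46312400) ranged from 6.82 through 7.13 to 7.75 in wt and from 6.84 through 7.06 to 7.73 in cre. All 10 cre mice lay within the wt range, and the difference was −0.01 (95% interval −0.31 to 0.30, limma adjusted p = 0.996).

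The inhibitor genes are part of the feedback of the pathway. Nfkbia encodes IκBα, which binds the classical dimers and is made anew after each round of activation (chromosome 12, 55489409 to 55492647). It ranged from 10.50 through 11.04 to 11.80 in wt and from 10.49 through 10.77 to 11.54 in cre. The highest value was that of wt replicate 9 and the lowest wt value that of replicate 5, the mouse with the most Tnf. Nfkbia differed by −0.17 (95% interval −0.51 to 0.17, limma adjusted p = 0.876). Nfkbie, the gene of the related inhibitor IκBε (chromosome 17, 45555700 to 45563169), ranged from 5.37 through 5.75 to 6.35 in wt and from 5.18 through 5.67 to 6.01 in cre, a difference of −0.19 (95% interval −0.50 to 0.12). Its median percentile on the arrays was 40.4.

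Tnfaip3 encodes A20, which edits ubiquitin chains and shuts down signalling below the TNF receptor (chromosome 10, 19000910 to 19015410). It ranged from 9.18 through 9.58 to 10.44 in wt and from 9.19 through 9.53 to 10.34 in cre. All 10 cre mice lay within the wt range, and the difference was −0.01 (95% interval −0.39 to 0.36, limma adjusted p = 0.993). In batch 1 the 5 cre mice were close together, at 9.51 ± 0.07 (SD, n = 5), against 9.64 ± 0.50 in wt.

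Tnip1 encodes ABIN-1, which binds ubiquitin and A20 (chromosome 11, 54910787 to 54962956). It ranged from 8.52 through 9.70 to 9.97 in wt and from 8.22 through 9.31 to 10.12 in cre. The wt value of 8.52 was that of replicate 6, the pad with epididymal genes, and the cre value of 8.22 that of replicate 9. Tnip1 differed by −0.32 (95% interval −0.76 to 0.11, limma adjusted p = 0.824), and without single mice by −0.44 to −0.19.

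Birc3, the gene of the ubiquitin ligase cIAP2 that protects cells from TNF-induced death (chromosome 9, 7847468 to 7873205), ranged from 10.52 through 10.99 to 12.13 in wt and from 10.39 through 11.07 to 11.76 in cre. As many cre mice lay above the wt mean as below it, 5 of each, and the difference was −0.05 (95% interval −0.50 to 0.40, limma adjusted p = 0.973).

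Icam1, the gene of the adhesion molecule that leukocytes bind on endothelium and other cells (chromosome 9, 21015940 to 21028814), had the largest difference of the 10 members. It ranged from 8.17 through 8.50 to 9.93 in wt and from 7.74 through 8.44 to 8.88 in cre. The medians were close, while wt replicates 2 and 5, at 9.93 and 9.70, lay well above every cre mouse, wt replicate 9 lay just above, and cre replicates 7, 9, 10 and 5 lay below every wt mouse. Icam1 differed by −0.39 (95% interval −0.86 to 0.08, limma adjusted p = 0.818). The lower end of this interval corresponds to 0.55 times the wt level.

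**Figure D1:**
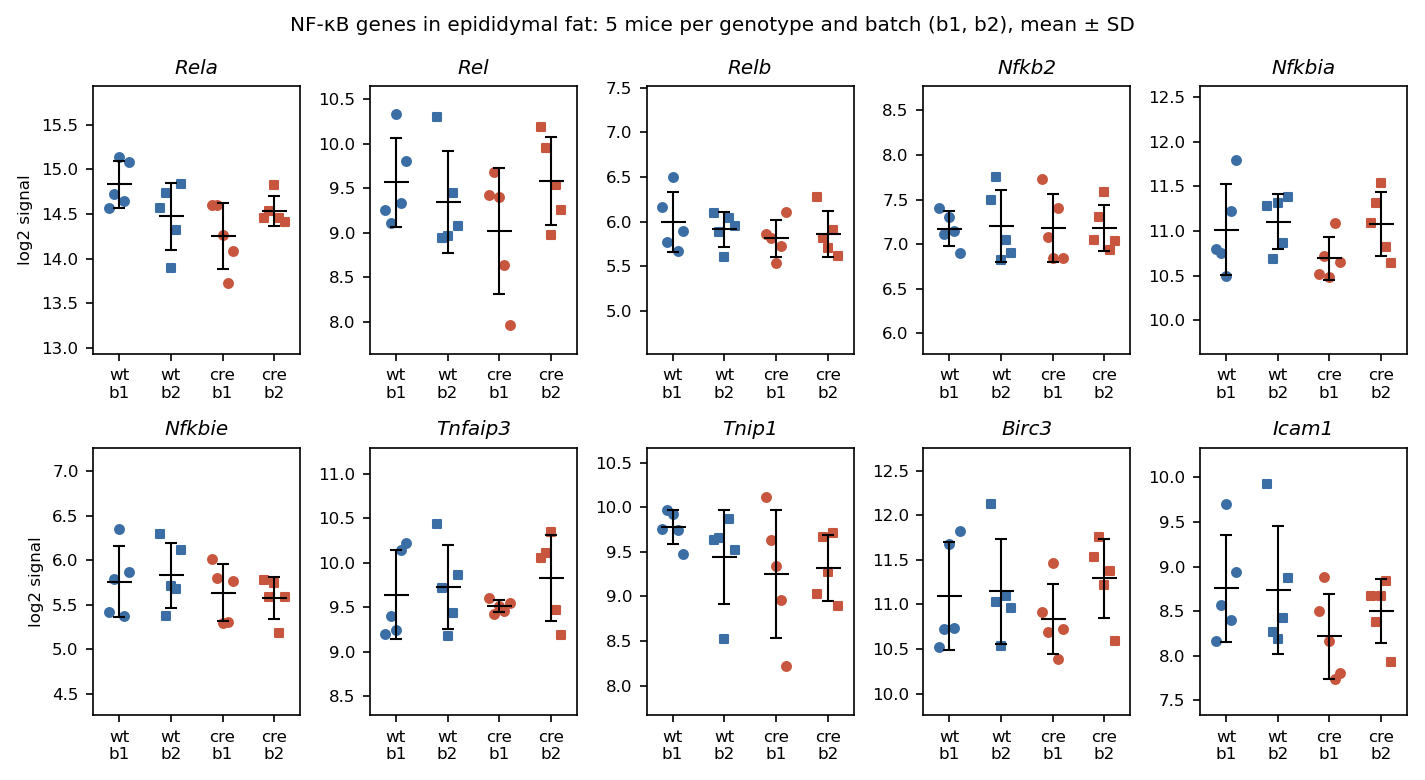
The log2 signal of each of the 10 genes is plotted on the vertical axis, 1 point per mouse, for wt (blue) and cre (red) mice in batch 1 (circles) and batch 2 (squares), with mean ± SD of 5 mice. Each panel spans 3 log2 units; the wt and cre points overlap in every panel, and Tnfaip3 in batch 1 cre mice has the smallest spread (SD 0.07).

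Among the 10 members the genotype difference changed most between batches for Rel and Rela, but 0 members passed adjustment for this change. Rela differed by −0.58 in batch 1 (wt 14.83 ± 0.26 against cre 14.25 ± 0.37, SD of 5 mice) and by 0.06 in batch 2 (14.47 ± 0.38 and 14.54 ± 0.17). Its order of cell means was wt batch 1, cre batch 2, wt batch 2 and cre batch 1, in which the middle pair lay within 1 SD of each other. The interaction of genotype and batch for Rela was 0.64 (SE 0.29, unadjusted p = 0.0375, limma adjusted p = 0.663). Rel differed by −0.55 in batch 1 and 0.24 in batch 2, with cell means of 9.57, 9.02, 9.34 and 9.58 for wt and cre in batch 1 and wt and cre in batch 2, and an interaction of 0.78 (SE 0.48, limma adjusted p = 0.742).

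Rela was the only member with an unadjusted p under 0.05 for the interaction, where 7.41% of all probe sets had one, and 0 members passed adjustment (0 of 22206 probe sets did, 0%). Leaving out cre replicate 6, 7 or 9, or wt replicate 5, 6, 8 or 9, singly left 0 members with such a p. Without wt replicate 2 there were 2. The low macrophage pads, cre replicates 7 and 9, were both in batch 1. For the remaining 8 members the difference lay between −0.54 and 0.01 in batch 1 and between −0.25 and 0.15 in batch 2. The batches themselves differed by −0.14 to 0.25 over the members (limma adjusted p = 1 for each; 0 of 10 members and 0.572% of all probe sets had an unadjusted p under 0.05). Whether the deposited values had been adjusted for batch, which would lower this share, is not given in the sources used here. The small batch differences are therefore not read as a result.

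**Figure D2:**
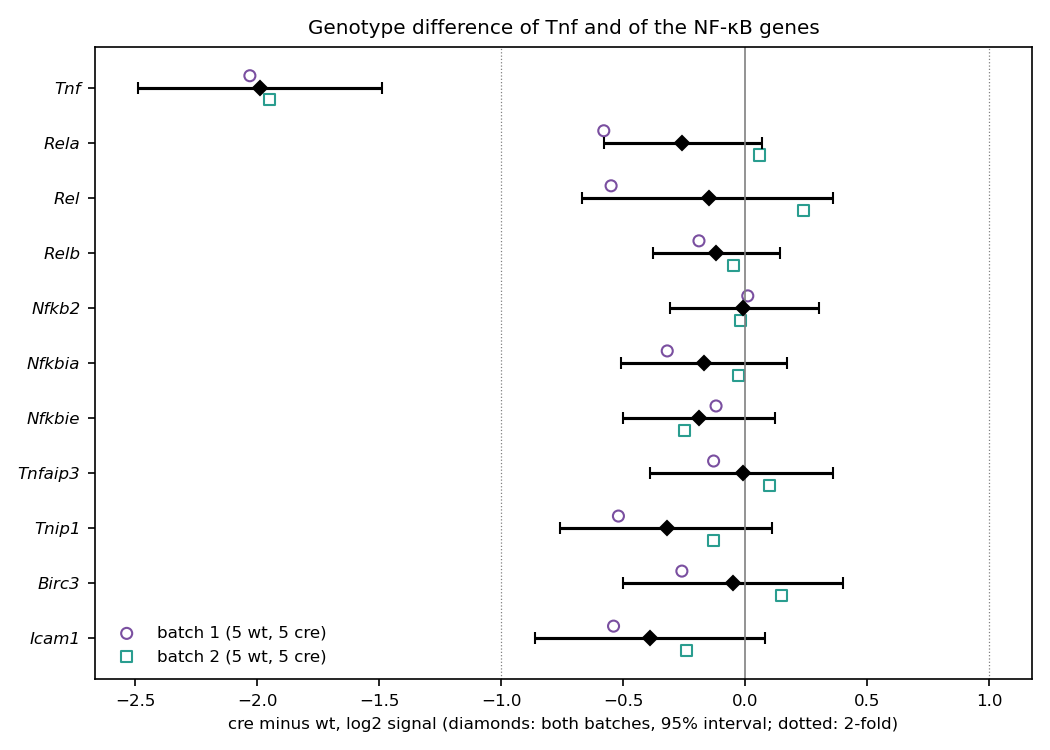
The horizontal axis gives cre minus wt in log2 signal for Tnf and the 10 members: diamonds with 95% intervals for both batches together (10 wt and 10 cre mice), circles for batch 1 and squares for batch 2. Tnf lies at −1.99, beyond the dotted line of a 2-fold step, and the members between −0.39 and −0.01 with intervals that all hold 0.

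The members were then set against Tnf across mice. Since Tnf separates the genotypes, relations were taken within each genotype, on deviations from batch means, with two-sided exact permutation of the mice within batches (14400 orders). In all, 20 relations were computed, 10 in wt and 10 in cre. In limma's fit of the slope in wt alone, 6 of 10 members had an unadjusted p under 0.05, against 7.28% of all probe sets with a positive slope at that threshold, and 0 passed adjustment (0%). In wt, Icam1 followed Tnf with Pearson's r = 0.90 (exact p = 0.00125, n = 10) and Spearman's rho = 0.77 (exact p = 0.0178). Birc3 followed with r = 0.87 (exact p = 0.00688) and rho = 0.83 (exact p = 0.00924).

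These targets were high in the same wt mice as Tnf. Wt replicates 5 and 2 had Tnf signals of 7.80 and 7.59, the highest of all, and also the highest Icam1 signals of 9.70 and 9.93. Without these 2 mice, r was 0.81 for Icam1 and 0.79 for Birc3 (n = 8). Leaving out any single wt mouse gave r from 0.85 to 0.92 for Icam1 and from 0.84 to 0.91 for Birc3.

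Some of the subunits and inhibitors followed Tnf among wt mice too. Nfkbie had r = 0.86 (exact p = 0.005) and rho = 0.71 (exact p = 0.0365), and Rela r = 0.73 (exact p = 0.0181) and rho = 0.77 (exact p = 0.0147). Rel had r = 0.85 (exact p = 0.00458) with rho = 0.66 (exact p = 0.057), and Relb r = 0.78 (exact p = 0.0207) with rho = 0.77 (exact p = 0.0258). Without wt replicates 5 and 2, r was 0.63 for Nfkbie, 0.79 for Rela, 0.58 for Rel and 0.47 for Relb, so the relation of Relb rests in large part on these mice.

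For the other 4 members the exact p did not pass 0.05 in wt. Nfkbia had r = 0.03 (exact p = 0.938) and rho = −0.14 (exact p = 0.739) with Tnf in wt, and Tnfaip3 r = 0.29 (exact p = 0.447) and rho = 0.33 (exact p = 0.361). In both, wt replicate 5 carried the most Tnf but a low signal, 10.50 for Nfkbia and 9.25 for Tnfaip3, and without it r was 0.52 and 0.69. Without wt replicate 9 the r of Nfkbia was −0.26, and without wt replicate 2 that of Tnfaip3 was 0.02. Nfkb2 had r = 0.18 (exact p = 0.597) and rho = 0.26 (exact p = 0.447), and Tnip1 r = 0.26 (exact p = 0.458) and rho = 0.25 (exact p = 0.461).

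In cre mice, where Tnf ranged from 3.91 to 5.34, Tnip1 alone had an exact p under 0.05 with Tnf (r = 0.58, exact p = 0.0259, rho = 0.64, exact p = 0.0489, n = 10). The Tnf signal stood at a median percentile of 38.3 over all arrays, and its SD was 0.43 in cre against 0.69 in wt. Whether this low and narrower signal weakened the relations in cre was not tested. Icam1 had r = 0.46 (exact p = 0.152) and rho = 0.36 (exact p = 0.339), and Birc3 r = 0.47 (exact p = 0.226) and rho = 0.33 (exact p = 0.389). Without cre replicates 10 and 8, the mice farthest from the median, these r were −0.04 and −0.06, so that they rest on those mice. The remaining 7 members had r from −0.12 to 0.48 in cre. In limma's fit of the slope in cre alone, 0 of 10 members had an unadjusted p under 0.05, against 2.21% of all probe sets with a positive slope at that threshold.

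**Figure D3:**
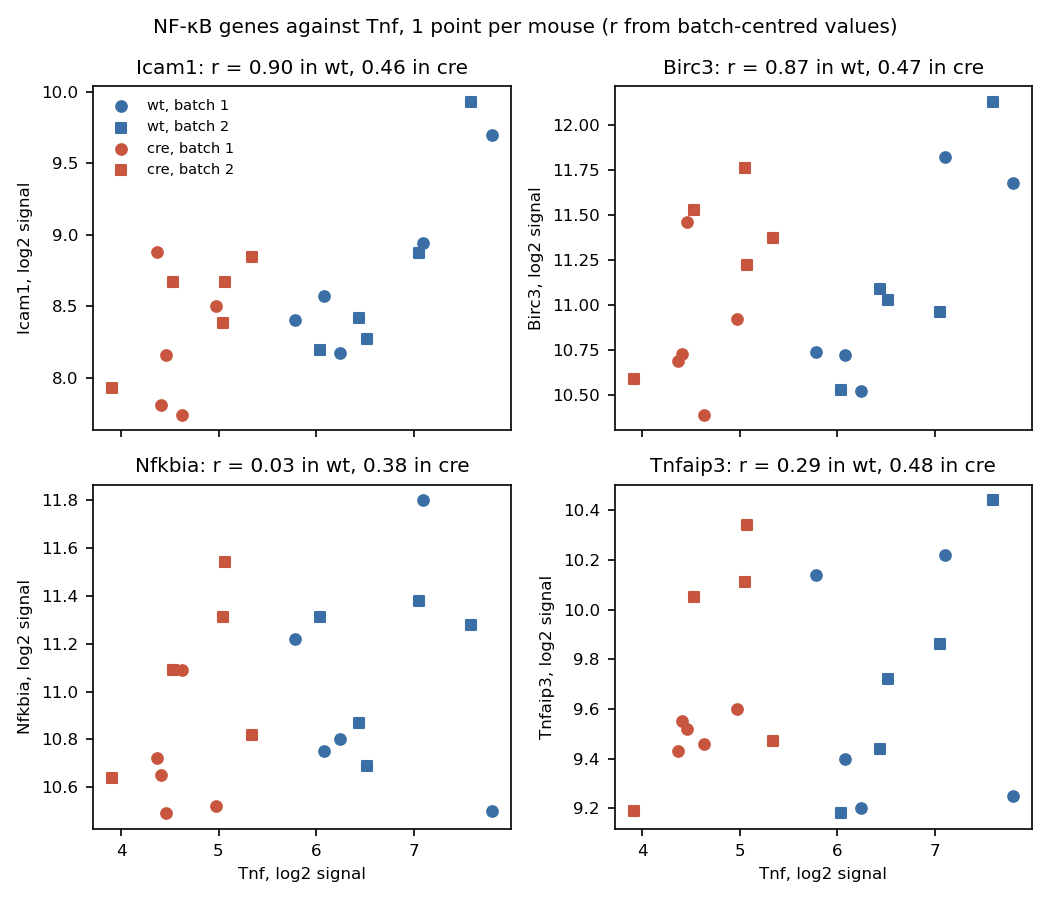
Each panel plots a gene's log2 signal (vertical) against the Tnf log2 signal (horizontal), 1 point per mouse, for wt (blue) and cre (red) in batch 1 (circles) and batch 2 (squares). Icam1 and Birc3 rise with Tnf among wt mice (r = 0.90 and 0.87) while the cre points, at lower Tnf, overlap them in height; Nfkbia shows no such relation in wt (r = 0.03).

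The same relation was fitted over all probe sets with limma, as a slope on Tnf within the 4 cells of genotype and batch, in log2 units per log2 unit of Tnf. All 10 members had a positive slope, with a median of 0.29 and a range from 0.09 to 0.72, while 45% of all 22205 probe sets had a positive slope and their median was −0.02. The macrophage markers had larger slopes, 20 of 20 positive with a median of 0.77, and 12 of the 20 had an unadjusted p under 0.05. An unadjusted p under 0.05 with a positive slope was reached by 5 of 10 members, Icam1, Birc3, Rel, Nfkbie and Rela, and by 7.47% of all probe sets (12.6% in either direction). No probe set passed adjustment (0%). Icam1 had a slope of 0.72 (SE 0.15, adjusted p = 0.116) and ranked at place 18 of 22205 by p, and Birc3 a slope of 0.65 (SE 0.15, adjusted p = 0.123) at place 60. Without cre replicates 7 and 9 the slope of Icam1 was 0.72 (adjusted p = 0.0319) and that of Birc3 0.65 (adjusted p = 0.0552), where 0.45% of all probe sets passed adjustment; a positive slope at an unadjusted p under 0.05 was reached by 6 of 10 members and 8% of all probe sets. Without wt replicates 4 and 6 they were 0.68 (adjusted p = 0.149) and 0.61 (adjusted p = 0.171), and these 2 of the 10 members had an unadjusted p under 0.05, against 7.18% of all probe sets with a positive slope.

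Within single batches, with values centred on each genotype's mean, Icam1 had r = 0.70 in batch 1 and 0.86 in batch 2 (n = 10 each), and Birc3 r = 0.70 and 0.80. Tnfaip3 had r = −0.15 in batch 1 and 0.73 in batch 2. The wt and cre slopes were also set against each other. The difference of slopes, cre minus wt, was −0.38 for Icam1 (95% interval −1.09 to 0.33) and −0.53 for Nfkbie (95% interval −1.11 to 0.04, unadjusted p = 0.0676). For the 10 members limma's adjusted p of this difference was 1, and 0 of the 10 had an unadjusted p under 0.05, which 4% of all probe sets had, so a difference between genotypes in these relations was not shown.

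Macrophage RNA moved with these relations, and its part in them was not tested beyond the fit with the macrophage mean given here. Over the 20 mice, as deviations from the 4 cell means, Tnf had r = 0.54 with the mean of the macrophage markers (permutation p = 0.0124, rho = 0.53, permutation p = 0.0218). Rel had r = 0.92 with it (permutation p = 1e-05, the smallest that 100000 resamples can give, rho = 0.88, permutation p = 3e-05), Icam1 r = 0.76 (permutation p = 0.00019, rho = 0.82, permutation p = 0.00016) and Birc3 r = 0.72 (permutation p = 0.00068, rho = 0.71, permutation p = 0.00182). Without cre replicate 9 and wt replicate 5, the mice farthest from the median, these r were 0.86, 0.72 and 0.77. Within wt, r with the macrophage mean was 0.82 for Tnf, 0.90 for Rel, 0.81 for Icam1 and 0.87 for Birc3. Within cre it was 0.22 for Tnf, 0.93 for Rel, 0.77 for Icam1 and 0.60 for Birc3. Over the 20 mice, Nfkb2, Nfkbia and Relb had r of −0.01, 0.08 and 0.22 with the macrophage mean (permutation p = 0.976, 0.754 and 0.385). Of 10016 named genes with a mean above the median of all probe sets, 9.37% had an r over 0.7 with the macrophage mean and 1.06% had an r over 0.7 with Tnf.

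At an equal macrophage mean, the slope on Tnf was 0.49 for Icam1 (SE 0.15, unadjusted p = 0.00436, limma adjusted p = 0.858) and 0.44 for Birc3 (SE 0.16, unadjusted p = 0.0114, adjusted p = 0.858). These were the 2 members of 10 with an unadjusted p under 0.05 and a positive slope there, against 3.19% of all probe sets. For Rel the slope was 0.02 (95% interval −0.27 to 0.31), against 0.49 without the macrophage term, and for Rela 0.19 against 0.28. The genotype difference of Icam1 at an equal macrophage mean was −0.18.

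The slope within genotypes can be set beside the difference between them. Per log2 unit of Tnf, Icam1 differed by 0.72 within genotypes but by 0.20 between them, and Birc3 by 0.65 within and 0.03 between. These are the members with the largest slopes. In the same order the values were 0.49 and 0.08 for Rel, 0.31 and 0.10 for Nfkbie, and 0.31 and 0.16 for Tnip1. They were 0.28 and 0.13 for Rela, 0.24 and 0.01 for Tnfaip3, and 0.23 and 0.06 for Relb. For Nfkb2 they were 0.15 and 0.00, and for Nfkbia 0.09 and 0.09. The Tnf ranges of the genotypes did not meet (highest cre 5.34, lowest wt 5.78), so these values are given side by side only.

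The members also varied with each other. Over the 45 pairs, r as deviations from the 4 cell means ranged from −0.27 to 0.76 with a median of 0.31, and 39 pairs were positive. Over all pairs of the 10016 genes the median was 0.02, with 52.2% positive. Icam1, Birc3 and Rel were high in the same mice, with r = 0.76 for Rel and Icam1 (permutation p = 0.00077, rho = 0.71, permutation p = 0.00201), 0.73 for Birc3 and Icam1 (permutation p = 0.00307, rho = 0.75, permutation p = 0.00116) and 0.71 for Rel and Birc3 (permutation p = 0.00169, rho = 0.66, permutation p = 0.00425). Without the 2 mice farthest from the median of the second gene, these r were 0.58, 0.51 and 0.63.

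Nfkbia and Tnfaip3 varied together, with r = 0.67 (permutation p = 0.00745) and rho = 0.65 (permutation p = 0.0119), and with r = 0.65 without wt replicate 2 and cre replicate 10. Within batches their r was 0.77 and 0.62 (n = 10 each). Nfkbia had r between −0.27 and 0.17 with the remaining 8 members. The 45 pairs were not adjusted as a family.

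**Figure D4:**
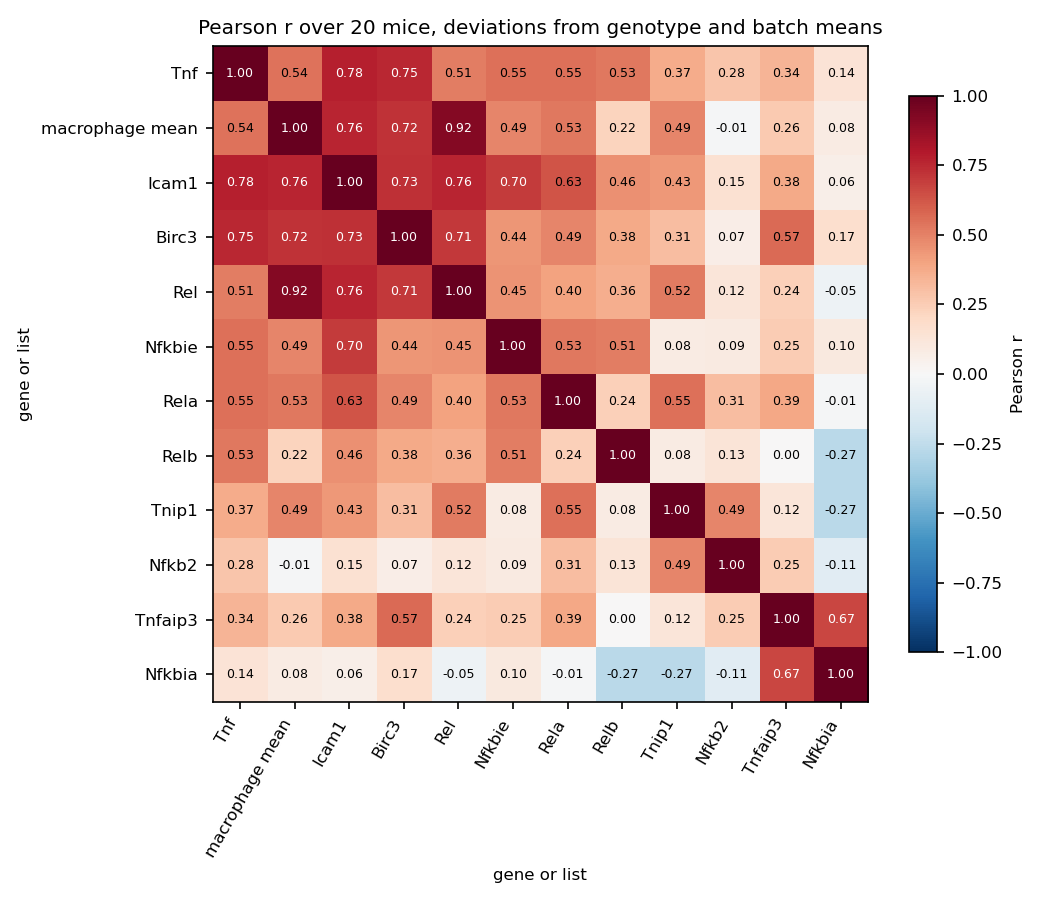
Pearson's r over 20 mice between Tnf, the mean of 19 macrophage markers and the 10 members, as deviations from the means of the 4 cells of genotype and batch, on a colour scale from −1 (blue) to 1 (red) on both axes. Tnf, the macrophage mean, Icam1, Birc3 and Rel form a red corner (r from 0.51 to 0.92), while Nfkbia has r = 0.67 with Tnfaip3 and at most 0.17 with the other members.

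Genes whose pattern over the 20 mice was most like a member were chosen by r among the same 10016 genes, so high values are partly the result of the choice. They were Cd72, Cd180 and Clec12a for Rel (r = 0.95, 0.94 and 0.94), H2bc15, H2bc12 and Cyfip2 for Birc3 (0.91, 0.90 and 0.90), and Pik3cd, Map11 and Dgkz for Icam1 (0.89, 0.89 and 0.88). For Rela they were E130309D02Rik, Itpkb and Rusc2 (r = 0.91, 0.90 and 0.87), and for Tnip1 Lhfpl2, Tuba1b and Wbp1l (0.91, 0.89 and 0.89). Nfkbia was most like Lyz1, Tapbpl and Tbcc (r = 0.77, 0.75 and 0.75), and Tnfaip3 most like Cytip, H2-T24 and Tapbpl (0.81, 0.80 and 0.78). Nfkb2 was nearest to Tmem175, Phlda1 and Pgd (r = 0.82, 0.81 and 0.81), Relb to Hs3st1, Baz1a and Rin2 (0.78, 0.77 and 0.74), and Nfkbie to Tut4, Tpm3 and Map3k8 (0.76 each).

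The other genes of the pathway were described by the same fit. Of 30 further signalling components, 21 were lower and 9 higher in cre, with a median of −0.11; 3 were lower and 0 higher at an unadjusted p under 0.05, against 3.05% of all probe sets lower and 3.24% higher, and 0 passed adjustment. Nfkbid and Bcl3 encode nuclear IκB proteins that act with NF-κB on DNA. Nfkbid had a mean signal of 7.20 ± 0.60 (SD, n = 10) in wt against 6.59 ± 0.66 (SD, n = 10) with Cre and differed by −0.61 (SE 0.27, limma adjusted p = 0.781), and 9 of the 10 values in cre lay under the mean of wt. Bcl3 differed by −0.60 (SE 0.28, adjusted p = 0.785), 8 of 10 values in cre lying under that mean, and N4bp1, an inhibitor of the pathway, by −0.29 (SE 0.13, adjusted p = 0.781).

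Of 32 other target genes, 20 were lower and 12 higher, with a median of −0.05, and 0 passed adjustment. At an unadjusted p under 0.05 stood 2 higher genes and 1 lower gene, against 3.24% of all probe sets higher and 3.05% lower. The higher genes were Sod2, the mitochondrial superoxide dismutase (0.44, SE 0.18, limma adjusted p = 0.77), and the cytokine gene Lif (0.38, SE 0.17, adjusted p = 0.785). The lower gene was the neutrophil chemokine gene Cxcl2 (−0.54, SE 0.25, adjusted p = 0.785).

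On the slope against Tnf, 7 of the 30 components were positive and 1 negative at an unadjusted p under 0.05, with 23 of 30 positive and a median of 0.13. Of all probe sets, 7.47% were positive at that threshold and 12.6% reached it in either direction. At any p 45% were positive, and 0 passed adjustment. Bcl3 had a slope of 0.82 (SE 0.19, limma adjusted p = 0.13). The adaptor gene Traf1 had a slope of 0.61 (SE 0.17, adjusted p = 0.176), Nfkbiz, another nuclear IκB gene, 0.54 (SE 0.16, adjusted p = 0.194), and Tab2 of the kinase complex 0.29 (SE 0.10, adjusted p = 0.247). Of the 32 targets, 13 were positive and 0 negative at an unadjusted p under 0.05, against the same 7.47% of all probe sets positive. In all, 25 of 32 were positive, with a median of 0.32. Vcam1, the gene of another adhesion molecule of endothelium, had a slope of 1.04 (SE 0.27, limma adjusted p = 0.157) and the chemokine gene Cxcl10 0.89 (SE 0.24, adjusted p = 0.162). The transcription factor gene Irf1 had 0.70 (SE 0.20, adjusted p = 0.181) and the receptor gene Tlr2 0.50 (SE 0.15, adjusted p = 0.199). Between genotypes, Vcam1 stood at 10.20 ± 1.04 in wt against 10.15 ± 0.69 in cre, Irf1 at 10.00 ± 0.82 against 10.04 ± 0.28, Cxcl10 at 6.15 ± 0.93 against 5.82 ± 0.58 and Tlr2 at 10.08 ± 0.38 against 9.88 ± 0.50 (SD, n = 10 mice per genotype).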

How the data were processed

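Total RNA of each fat pad was amplified, biotinylated and hybridised to an array, as the labels' protocols describe. Per the labels, each array is 1 mouse. The log2 signals deposited by the authors cover 22206 probe sets on 20 arrays. Transcriptome Analysis Console 4.0.2.15, RMA and mm10 are named in the submitters' processing notes. Filters and any batch adjustment are not given in the sources used here. Genotype, batch and replicate came from the titles.

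Gene names came from the platform's table, in which 19572 probe sets have 1 symbol and 0 have several; 2634 are unnamed here. Coordinates are those of the RefSeq gene table (mm10). The fits used limma 3.58.1 in R 4.3.3 (lmFit, eBayes without trend): genotype with batch, their interaction, and the slope on Tnf within the 4 cells of genotype and batch, adjusted by Benjamini-Hochberg over all probe sets at a threshold of 0.05. Adjusted p-values in the text are from these fits. They were tested on simulated data. Relations across mice used permutation in Python 3.11.15 with pandas 2.3.3, SciPy 1.17.1 and NumPy 2.4.6. The tool matplotlib 3.10.9 drew the figures.

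The members, lists, alternatives and tests were chosen with earlier results of these data known. All 10 members are named. Up to 4 genes of each other pathway list were named by smallest p (in the genotype fit, those with an unadjusted p under 0.05), and 3 genes per member by highest r. The lists of markers for other cell types gave means per mouse, and Lyz2 was left out of the macrophage mean. The number of arrays limits the precision.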

Additional observations from a re-analysis of the deposited data

Results flagged for a closer look

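Tnip1 in wt replicate 6 had a log2 signal of 8.52, and the gap to the next wt mouse made up 0.657 of the whole wt range, above the limit of 0.466 for 10 mice. Of 22 groups tested, 11 genes with Tnf in each genotype, this was the only one past its limit, where chance gives about 1 in 20. The same pad had an epididymis, seminal vesicle and testis mean of 10.32. Without it Tnip1 differed by −0.44 between genotypes (limma adjusted p = 0.805).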

How the results depend on the processing

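Over 13 other settings and each mouse left out in turn, the genotype differences of the 10 members gave 330 values, of which 32 turned direction. The other 298 did not turn and kept their side of the threshold, and some of them rounded to 0.00. With batch 2 alone, Birc3 differed by 0.15, Rel by 0.24, Rela by 0.06 and Tnfaip3 by 0.10. With the macrophage mean as a covariate, Birc3 differed by 0.14, Rel by 0.12 and Tnfaip3 by 0.04. Without cre replicates 7 and 9, Birc3 differed by 0.05, Rel by 0.11 and Nfkb2 by 0.01. Nfkb2 differed by 0.02 without wt replicates 4 and 6, and by 0.01 with batch 1 alone and with quantile normalization. With Tnf as a covariate, chosen after seeing the data and not counted above, each value is close to the genotype difference plus the slope times the gap in Tnf, so the turn of all 10 follows from their slopes and is no further evidence: Birc3 1.24, Icam1 1.06, Rel 0.84, Tnfaip3 0.47, Nfkbie 0.42, Relb 0.34, Rela 0.33, Tnip1 0.30, Nfkb2 0.29 and Nfkbia 0.01. Leaving out single mice gave −0.14 to 0.05 for Birc3, −0.07 to 0.06 for Nfkb2 and −0.09 to 0.06 for Tnfaip3, and −0.13 to 0.11 for the Nfkb2 interaction. The slope of Nfkbie on Tnf was −0.08 in cre alone. The cause was not tested.

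Members past an adjusted p of 0.05 for the slope numbered 2 with array weights (limma adjusted p = 0.0383 for Icam1 and 0.047 for Birc3) and 1 without cre replicates 7 and 9 (Icam1, adjusted p = 0.0319), against 0. Over single mice left out, the adjusted p lay between 0.0566 and 0.363 for Icam1 and between 0.0868 and 0.363 for Birc3. Probe sets past adjustment for the slope numbered 105 with array weights, 100 without cre replicates 7 and 9, and 0 to 2 without single mice. At an unadjusted p under 0.05, members differing between genotypes numbered 3 without wt replicates 4 and 6 (chosen after seeing the data). In that fit 6.89% of all probe sets had such a p. The members numbered 1 with batch 1 alone, 1 without wt replicates 5 and 6, and 0 to 2 without single mice. For the slope they numbered 2 without wt replicates 4 and 6, 2 with the macrophage covariate and 0 in cre alone. Positive slopes at that threshold were reached there by 7.18%, 3.19% and 2.21% of all probe sets. Without single mice the members numbered 3 to 6 for the slope and 0 to 2 for the interaction. No share of all probe sets is given for batch 1 alone, without wt replicates 5 and 6, or without single mice. Those counts are therefore not read as results about the members. Probe sets past adjustment between genotypes numbered 0 in each batch alone, 2 with the macrophage covariate and 1 to 2 without single mice.

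With the replicate number as a block, 0 probe sets passed between genotypes, and Tnf differed by −1.99 (limma adjusted p = 0.0568). A pairing of the mice by number was not shown: 5 of 10 pairs had a correlation over 0.1, with a range from −0.45 to 0.40. Of the 10 wt mice, 1 was most like the cre mouse of its own number. With 10 pairs, this check cannot exclude a pairing. Each member had a single probe set, so averaging probe sets could give no other value.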
